A study of Mus musculus with 6 samples.

Results

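CiSCs, compound-induced Sertoli-like cells, were compared with MEFs, the mouse embryonic fibroblasts from which they had been made, gene by gene over the whole expression profile. The comparison took 4 of the 6 libraries of the series, 2 of CiSCs and 2 of MEFs, chosen by their labels, and all 20007 gene identifiers of the deposited tables. MEFs came from KM mouse embryos labelled as 13.5 days post coitum (an earlier day is also possible by the growth protocol), were plated on dishes and received no compound that the labels record. CiSCs came from embryos of the same strain and labelled age. The fibroblasts had been passaged, seeded on 6-well plates and exposed a day later to small molecules that the labels do not name, at doses and for a time that they do not give. No group of passaged MEFs without compounds is among the 6 libraries, so the compounds cannot be told apart from passaging and culture. MSCs, cultured Sertoli cells from testes at postnatal day 60 of the same strain, made up the other 2 libraries and entered the fit for its estimate of spread. The series was designed to ask whether the induced cells resemble Sertoli cells in their expression profile. The present comparison addresses which genes set them apart from the starting cells.

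Sertoli cells line the seminiferous tubule of the testis and nurse its germ cells. They arise in the embryonic gonad under transcription factors such as Wt1, Gata4 and Sox9, seal the tubule with tight junctions and clear dying germ cells. Fibroblasts are mesenchymal cells that make collagens and other extracellular matrix. Primary fibroblast cultures from embryos are mixed, and can hold other cell types of the embryo such as macrophages.

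Depth was even, from 19294671 to 19809083 expected counts in the 4 libraries (counts estimated per gene that need not be whole), so that 1 read was worth 0.0468 to 0.052 CPM (the usual read count scaled for depth, here on library sizes scaled by TMM, the trimmed mean of M values). The CiSCs libraries were closely alike, with 23 of 9598 genes at 10 CPM or more differing over 2-fold between them, against 485 of 9860 in MEFs. Of those 485 genes, 345 were higher in the first MEFs library and 140 in the second. The defining markers of fibroblasts were present in both groups, among them Col1a1, a chain of type I collagen, at 8430.0 and 10586 CPM in MEFs and 12686 and 12295 CPM in CiSCs. By the test given below, 4 of the 15 markers were higher in CiSCs (26.7%) and 4 lower (26.7%), against 19.6% and 21.3% of tested genes. Fap rose from 6.02 and 4.11 to 235 and 230.0 CPM, and S100a4 fell from 493 and 707 to 2.62 and 4.16 CPM. Markers of macrophages were abundant in MEFs, where the 48 listed receptor and signalling genes summed to 8903 and 13009 CPM. In CiSCs they summed to 118 and 128 CPM. The 2 MEFs libraries thus differed in their myeloid counts. The part of macrophage RNA in the other results was not tested. With the leukocyte and lysosome genes left out of the fit, 2809 genes were higher and 3214 lower. As these are bulk samples, fewer cells of a type and less RNA per cell cannot be told apart.

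Across 15272 genes with enough counts to be tested, 6250 (40.9%) differed between CiSCs and MEFs at an adjusted p under 0.05 (edgeR, quasi-likelihood test, p-values adjusted by Benjamini and Hochberg's method). Of the tested genes, 2998 (19.6%) were higher in CiSCs and 3252 (21.3%) were lower. The 2 groups did not overlap for 10851 tested genes (71.1%), and for none of the 6250 that passed did they overlap. The fall side held more of the steep changes, with 686 genes lower by at least 16-fold against 277 higher. By level, 205 genes went from at least 20 CPM in MEFs to under 1 CPM in CiSCs, and 36 went the other way. The counts of calls depend on single libraries. Without the first MEFs library 4646 genes were higher and 4841 lower, and without the first or second CiSCs library 1548 or 1473 were higher and 1922 lower in each case. Scaling the libraries on 30 housekeeping genes, 11 of which fell and 0 rose in the fit as reported, moved the median log2 fold change of all genes from -0.002 to 0.332 and gave 4831 higher and 2222 lower, or 68.5% higher among the calls against 48.0%. Changes below are relative to the median of all tested genes. Nothing in the labels ties the 2 libraries of each group to separate cultures, so the spread behind each p-value is that of these libraries and may be technical.

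**Figure D1:**
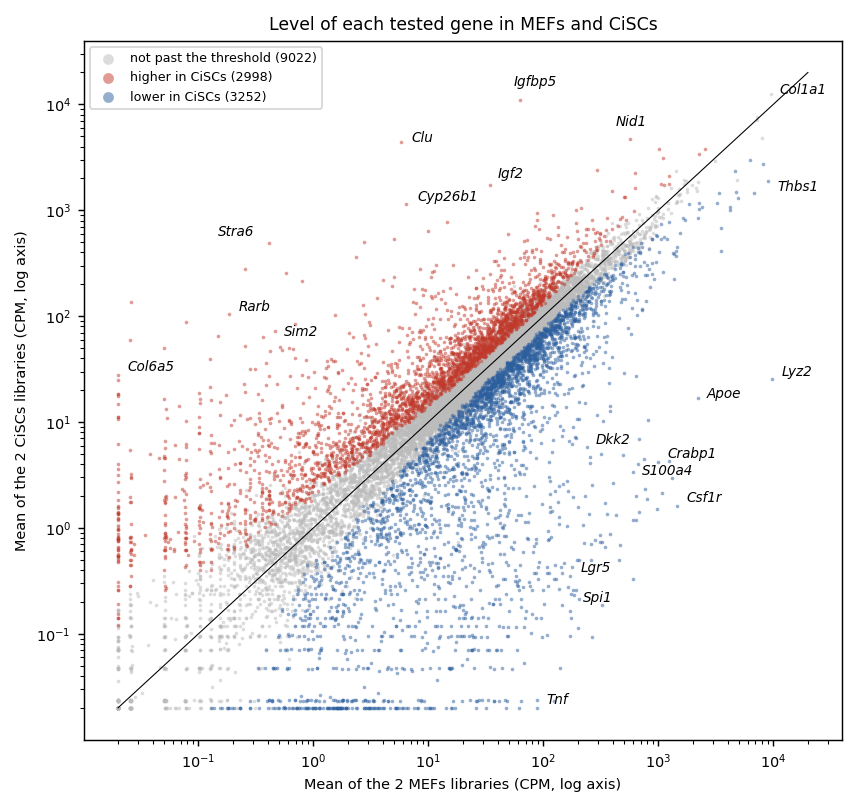
Mean level of each of the 15272 tested genes in the 2 MEFs libraries (horizontal) and the 2 CiSCs libraries (vertical), in CPM on log axes, with a mean of 0 drawn at 0.02 and the line of equal level. Genes past the threshold are red (2998 higher in CiSCs) or blue (3252 lower), and genes near 0 in CiSCs with 10 CPM or more in MEFs are more frequent than the reverse.

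Some of the genes past the threshold took different shares of the counts in the 2 groups. Genes that did not pass, such as the abundant Col1a1 and Fn1, were not ranked here. Among genes past the threshold, the 10 with the largest gain in CPM took 0.694% and 0.560% of the counts in MEFs and 4.26% and 4.07% in CiSCs. They encode Igfbp5, Clu, Nid1, Col3a1, Dcn, Hspg2, Igf2, Emp1, Sparc and Cyp26b1, for the most part secreted and matrix proteins. Igfbp5, a secreted binding protein for insulin-like growth factors, stood at 65.3 and 61 CPM in MEFs and 11541 and 10351 CPM in CiSCs (log2 fold change 7.44 ± 0.19, adjusted p = 1.49e-05, where ± is the standard error of the fit and the adjusted p is edgeR's, here and below). Both CiSCs libraries were far above both MEFs libraries. Among genes past the threshold, the 10 with the largest loss took 5.84% and 6.45% in MEFs and 1.66% and 1.48% in CiSCs. Of these, Thbs1, Spp1, Tnc, Bgn, Postn and Fbln2 are matrix or secreted glycoprotein and proteoglycan genes, Lyz2 (lysozyme) and Ctsb (a cathepsin) belong to phagocytes and lysosomes, and Ftl1 and Fth1 encode the ferritin chains. Sparc, a collagen-binding matrix protein, stood at 2855 and 2284 CPM in MEFs and 3991 and 3625 CPM in CiSCs (log2 fold change 0.57 ± 0.17, adjusted p = 0.039), and it lost its call in 6 of the 15 alternative fits.

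To place the changes by function, 66 lists and sub-lists of genes were counted, each read against the 19.6% of tested genes that rose and the 21.3% that fell, and against the median log2 fold change of -0.00 over all tested genes. The shares of genes that fell were highest in the myeloid lists. Those that rose made up more than 6 in 10 of the tested members in the feedback genes of ERK signalling and in the Hedgehog genes, though with 12 to 16 members each.

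**Figure D2:**
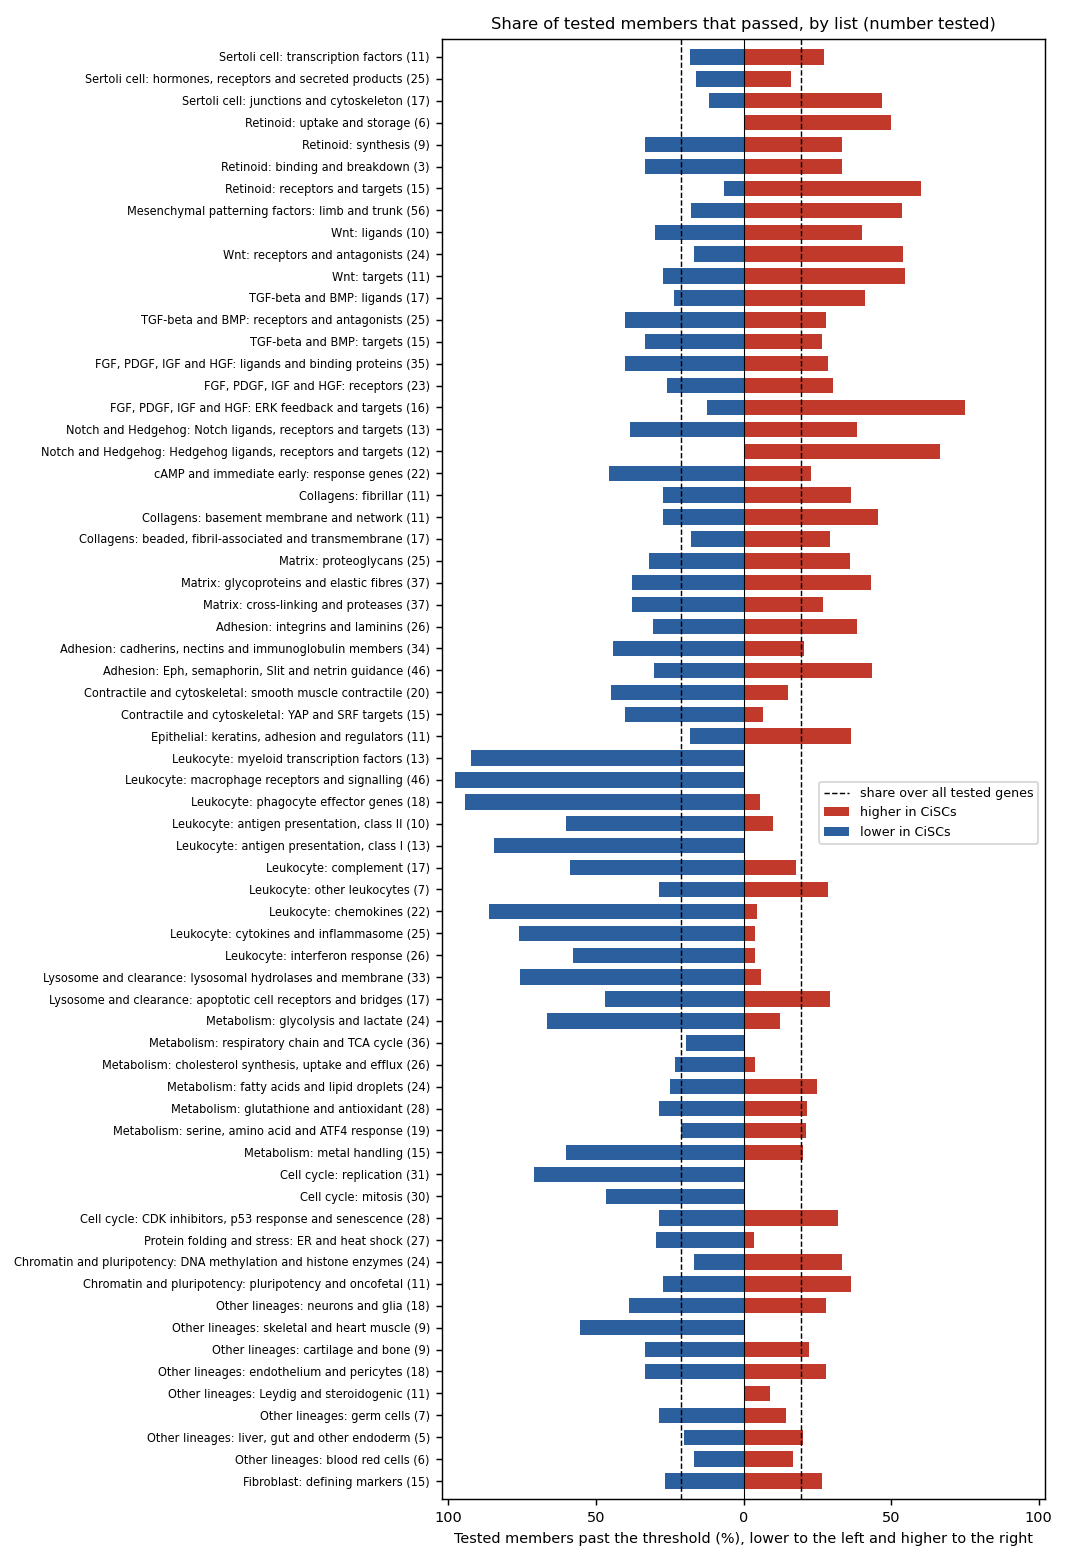
Percentage of the tested members of each of 66 gene lists that were higher (red, to the right) or lower (blue, to the left) in CiSCs, with the number tested in parentheses and dashed lines at the shares over all tested genes, 19.6% and 21.3%. Of the 46 tested macrophage receptor and signalling genes 45 were lower, and of the 16 ERK feedback and target genes 12 were higher.

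Sertoli cell genes differed by kind. Of 11 tested transcription factors of the Sertoli lineage 3 rose (27.3%) and 2 fell (18.2%, 1 gene without the second CiSCs library). These shares lie near the 19.6% and 21.3% over all tested genes. The median log2 fold change was -0.67, or 1.81 with MEFs and CiSCs alone. The factor Wt1, required for the gonadal ridge and for Sertoli cell identity, stood at 1.32 and 1.4 CPM in MEFs and 22.4 and 21.1 CPM in CiSCs (log2 fold change 3.99 ± 0.20, adjusted p = 3.12e-05). Gata6, a relative of Gata4, rose further, from 1.52 and 1.35 to 39.6 and 38.9 CPM. Sox8 passed at very low levels, 0.0506 and 0.052 CPM in MEFs and 0.572 and 0.655 CPM in CiSCs, with a ratio of summed reads of 12 (95% interval 3.0 to 104). Such ratios are given where a group had 1 to 3 reads, and a group with 0 reads is set to 3 reads over the group for a bound. Both cover counting error only, as reads without molecular identifiers are not independent molecules. In the other direction, the early gonad factors Emx2 and Lhx9 fell, Emx2 from 26 and 25.5 to 8.3 and 10.4 CPM and Lhx9 from 13.5 and 2.5 to 0.426 and 0.145 CPM. The MEFs libraries differed over 5 times in Lhx9, which lost its call in 1 alternative fit. Sox9, the switch gene of Sertoli cell fate, overlapped between the groups at 12 and 15.6 CPM in MEFs and 16.9 and 14.6 CPM in CiSCs. Gata4 had 6 and 4 reads in MEFs and CiSCs, Nr5a1 2 and 0 and Dmrt1 0 and 3, too few reads for a difference to be detected. Gata4, a defining factor of Sertoli cells, was thus near 0 in CiSCs as in MEFs.

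Hormones, receptors and secreted products of Sertoli cells showed no common direction, with 4 of 25 tested genes higher (2 without the second CiSCs library) and 4 lower. Clu, a secreted chaperone abundant in Sertoli cells, was at 5.66 and 5.87 CPM in MEFs and 4734 and 4020.2 CPM in CiSCs (log2 fold change 9.57 ± 0.34, adjusted p = 1.49e-05). Kitl, the ligand of the germ cell receptor Kit, rose from 23.1 and 11.2 to 49 and 57.1 CPM and lost its call in 1 alternative fit. By contrast Trf, the iron carrier transferrin, fell from 99.9 and 123 to 2.97 and 3.04 CPM, and the cholesterol exporter Abca1 from 322 and 267 to 58.6 and 71.7 CPM. Inhbb, which encodes a subunit of inhibin B, did not pass at 74.3 and 80.5 CPM in MEFs and 74.9 and 62 CPM in CiSCs. Inha, the subunit that makes the hormone an inhibin, was at 5.41 and 6.97 CPM in MEFs and 10.4 and 9.59 CPM in CiSCs (adjusted p = 0.0724, edgeR). Dhh, the Hedgehog ligand of Sertoli cells, and Amh, the hormone that removes the female duct, had 4 and 8 and 2 and 10 reads in MEFs and CiSCs and did not pass. The hormone receptor Fshr had 0 reads in all 4 libraries.

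Junction and cytoskeleton genes leaned upward, with 8 of 17 tested members higher, 2 lower (1 without either CiSCs library or with housekeeping scaling) and a median log2 fold change of 1.24. This lean is by number of genes. The 20 listed genes summed to 3394 and 4287 CPM in MEFs and to less, 2661 and 2428 CPM, in CiSCs. The genes named below that passed are all among the higher ones. Jam2, a junctional adhesion molecule of the seminiferous epithelium, stood at 9.91 and 5.61 CPM in MEFs and 139 and 129 CPM in CiSCs. F11r, its relative, rose from 22.7 and 23 to 123 and 117 CPM, and the gap junction gene Gja1 (connexin 43) from 62.1 and 37.5 to 213 and 202 CPM. The intermediate filament gene Krt18 reached 15.5 and 10.2 CPM from 1.11 and 1.4 CPM. Cldn11, the claudin of the blood-testis barrier, passed at low levels, 0.101 and 0.052 CPM in MEFs and 1.0 and 1.17 CPM in CiSCs, with a ratio of 14.1 (95% interval 4.54 to 71). The cadherin Cdh2 and the nectin Nectin2 did not pass, at 89 and 65.4 CPM in MEFs and 94.4 and 97.4 CPM in CiSCs for Cdh2 and 129 and 147 CPM in MEFs and 142 and 124 CPM in CiSCs for Nectin2, which overlapped.

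Retinoid pathway genes changed strongly, some up and some down. Retinol enters cells through Stra6 and is stored as ester by Lrat. Dehydrogenases oxidise it to retinal and retinoic acid, Dhrs3 reduces retinal back, and the Cyp26 enzymes break retinoic acid down. Retinoic acid acts through the nuclear receptors Rara, Rarb and Rarg, partnered by Rxr receptors, and Rarb is itself a textbook target. Its promoter is shown because the direct repeat that binds these receptors, the DR5 retinoic acid response element, can be read in it. In the RefSeq promoter table of GRCm38.p6, the capitals mark this match, 53 bases before the start site, in the 250 bases before the start and the 10 after it (chr14:16575467-16575726, minus strand).
Rarb: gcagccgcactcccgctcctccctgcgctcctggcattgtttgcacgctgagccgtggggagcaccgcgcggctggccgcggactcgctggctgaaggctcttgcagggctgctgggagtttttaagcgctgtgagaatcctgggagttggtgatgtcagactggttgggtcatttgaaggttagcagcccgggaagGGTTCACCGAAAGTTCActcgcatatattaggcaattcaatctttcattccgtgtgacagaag
The DR5 motif, searched on both strands, was present in 32 of 32851 promoters in the table, each from 250 bases before the start to 50 after it (0.0974%). It was found in 1 of 14 genes with a promoter among the retinoid receptors and targets, this one, and in 1 of 4 among the binding and breakdown genes, Cyp26a1, which had too few counts to be tested. Of the 6 tested genes with a match, 1 was higher in CiSCs (Rarb) and 3 were lower, or 0.0447% of the 2237 higher and 0.124% of the 2423 lower genes with a promoter. The match shown overlapped none of the other 4 motifs searched (PU.1, cAMP, sterol and interferon elements). A match is a description of the letters only.

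Rarb expression was close to 0 in MEFs, at 0.0946 and 0.275 CPM, and 104 and 104 CPM in CiSCs (log2 fold change 9.13 ± 0.27, adjusted p = 1.49e-05). In uptake and storage, 3 of 6 tested genes rose and 0 fell. Stra6 stood at 0.405 and 0.416 CPM in MEFs and 507 and 473 CPM in CiSCs (log2 fold change 10.20 ± 0.25, adjusted p = 1.49e-05). Lrat went from 0 reads in MEFs to 14.7 and 15 CPM, at least 193-fold higher in CiSCs. Dgat1 (17.8 and 20.1 CPM in MEFs and 23.2 and 22.5 CPM in CiSCs) and the binding protein gene Rbp7 (21 and 33.7 CPM in MEFs and 29 and 21.6 CPM in CiSCs) did not pass. The groups overlapped in Rbp7 but not in Stra6, Lrat or Dgat1, as in 71.1% of all tested genes.

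Genes of retinoid metabolism went both ways. Dhrs3, a retinal reductase that retinoic acid induces, rose from 96.8 and 171 to 733 and 667 CPM and Cyp26b1 from 7.33 and 5.56 to 1153 and 1116 CPM (log2 fold change 7.46 ± 0.22, adjusted p = 1.49e-05). The dehydrogenases Dhrs9 and Adh1 fell, Dhrs9 from 25.8 and 8.68 to 0.859 and 0.374 CPM and Adh1 from 12.3 and 14.7 to 5.82 and 5.33 CPM. The retinal dehydrogenase gene Aldh1a1 was near 1 CPM in each library and did not pass. Crabp1, the cellular retinoic acid-binding protein, showed the opposite pattern to Cyp26b1, at 859 and 1129 CPM in MEFs and 4.44 and 3.98 CPM in CiSCs (log2 fold change -7.88 ± 0.25, adjusted p = 1.49e-05). Its relative Crabp2 did not pass, at 1.26 and 1.87 CPM in MEFs and 2.86 and 2.11 CPM in CiSCs. Among receptors and targets, 9 of 15 rose, 1 fell (2 without the first MEFs library) and the median log2 fold change was 1.14. Rara rose from 27.2 and 27.4 to 63.7 and 58.3 CPM and Rarg from 59.7 and 74.7 to 161 and 135 CPM. Of the target genes, Meis2, a homeobox gene, stood at 22.5 and 21.4 CPM in MEFs and 248 and 223 CPM in CiSCs and the repressor gene Hic1 at 37.4 and 52.8 CPM in MEFs and 369 and 333 CPM in CiSCs. Rxra and Rxrb, the partner receptors, overlapped between the groups.

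**Figure D3:**
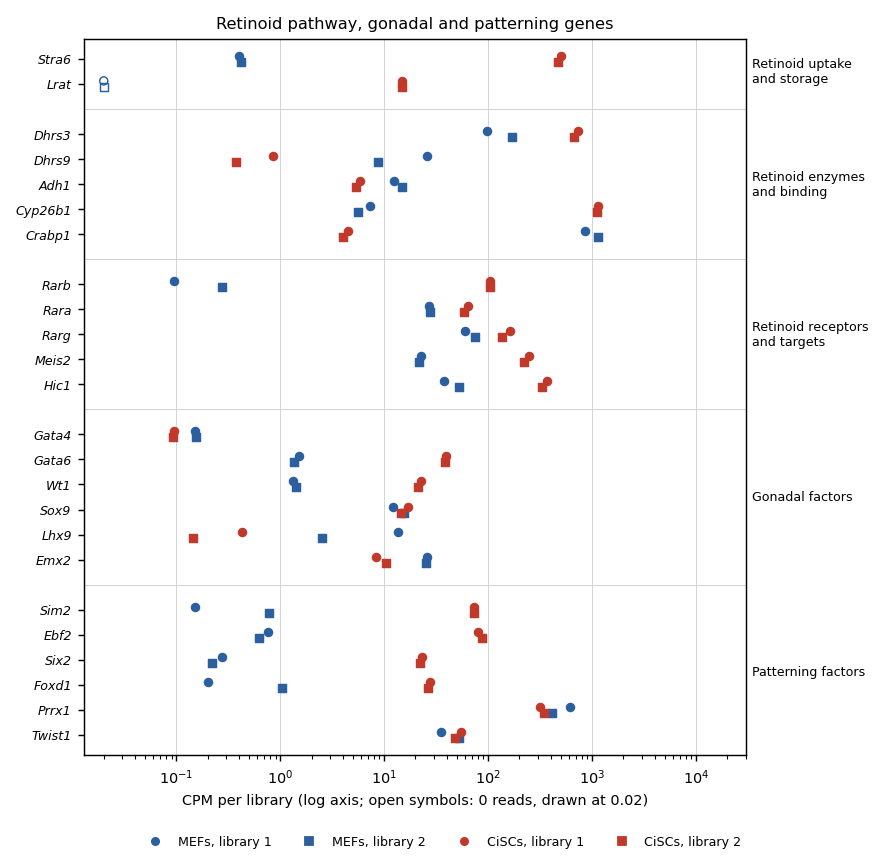
CPM of retinoid pathway, gonadal and patterning genes in each of the 4 libraries on a log axis (blue MEFs, red CiSCs, circles library 1 and squares library 2, open symbols 0 reads). Stra6, Rarb and Cyp26b1 lie far to the right in CiSCs, Crabp1 far to the left, and Gata4 and Sox9 lie together in both groups.

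Transcription factors that pattern limb and trunk mesenchyme rose more often than tested genes at large, with 30 of 56 higher and 10 lower (median log2 fold change 0.96). Sim2, a bHLH-PAS factor, stood at 0.152 and 0.78 CPM in MEFs and 72.5 and 72.6 CPM in CiSCs (log2 fold change 7.27 ± 0.46, adjusted p = 7.12e-05). Ebf2, a regulator of mesenchymal and fat cell precursors, rose from 0.759 and 0.624 to 80.2 and 87.3 CPM, and Six2, a factor of kidney and craniofacial mesenchyme, from 0.275 and 0.22 to 23 and 22.3 CPM. Foxd1, known from the stroma of kidney, stood at 0.202 and 1.04 CPM in MEFs and 27.5 and 26.4 CPM in CiSCs. These 4 genes were near or below 1 CPM in both MEFs libraries and above 20 CPM in both CiSCs libraries. The broad mesenchymal factors Prrx1 (616 and 413 CPM in MEFs and 318 and 348 CPM in CiSCs, adjusted p = 0.0591, edgeR) and Twist1 (34.8 and 52.1 CPM in MEFs and 54.7 and 48.4 CPM in CiSCs) did not pass.

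Wnt proteins are secreted signals that act through Frizzled receptors and are held back by Dkk and Sfrp proteins. Among the ligands 4 of 10 rose (2 without the second CiSCs library) and 3 fell. Wnt2b stood at 1.03 and 1.55 CPM in MEFs and 22.8 and 29 CPM in CiSCs and Wnt5b at 0.809 and 0.884 CPM in MEFs and 8.11 and 8.19 CPM in CiSCs. Wnt4, a ligand of female gonad development, and Wnt6 fell, Wnt4 to 0.389 and 0.377 CPM from 5.48 and 8.78 CPM and Wnt6 to 1.24 and 0.842 CPM from 4.81 and 8.94 CPM. Wnt5a, the ligand with the highest mean that did not pass, was at 122 and 82.6 CPM in MEFs and 68.3 and 69 CPM in CiSCs. Receptors and antagonists rose in 13 of 24 cases and fell in 4 (median 0.83). Lgr5, a receptor for R-spondins and a marker of stem cells in several tissues, fell from 209 and 145 to 0.461 and 0.40 CPM (log2 fold change -8.60 ± 0.38, adjusted p = 2.16e-05). The antagonist Dkk2 fell from 276 and 203 to 5.82 and 5.76 CPM (log2 fold change -5.37 ± 0.24, adjusted p = 2.33e-05). Sfrp2, another antagonist, rose from 1.37 and 1.2 to 34 and 30.9 CPM, and the receptor Fzd4 from 1.16 and 0.676 to 14 and 20.3 CPM. Thus antagonists were found on both sides. Wnt targets also divided, 6 of 11 higher (2 without the second CiSCs library) and 3 lower. Tcf7, a nuclear factor of the pathway, rose from 0.354 and 0.26 to 6.54 and 5.94 CPM and the feedback inhibitor Nkd1 from 3.34 and 4.37 to 12.3 and 10.9 CPM. Apcdd1, another inhibitor, fell from 19.9 and 12.8 to 3.34 and 2.71 CPM and the growth regulator Myc from 107 and 95.8 to 48.2 and 38.1 CPM.

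TGF-beta and BMP signals are caught outside the cell by antagonists such as Grem1 and Fst (follistatin). Of 25 receptors and antagonists 7 rose (11 without the first MEFs library) and 10 fell. Both of these antagonists fell. Grem1 stood at 170.4 and 104 CPM in MEFs and 2.48 and 2.48 CPM in CiSCs (log2 fold change -5.79 ± 0.30, adjusted p = 3.5e-05) and Fst at 100.2 and 40.2 CPM in MEFs and 1.96 and 2.01 CPM in CiSCs. The first MEFs library was above the second in both genes, and both libraries were far above CiSCs. Chrdl1, a BMP antagonist, rose from 1 read in MEFs to 5.3 and 5.71 CPM in CiSCs, a ratio of 215 (95% interval 38.2 to 8516). Among the ligands 7 of 17 rose and 4 fell (1 and 0 without the first and the second CiSCs library, 1 with housekeeping scaling). Tgfb2 rose from 19.6 and 9.16 to 107 and 122 CPM, Gdf10 from 21.6 and 28.1 to 159 and 140.1 CPM, Bmp6 from 0.91 and 0.572 to 8.54 and 7.3 CPM and Gdf6 from 1.01 and 0.624 to 7.44 and 7.58 CPM. Target genes had 4 of 15 higher and 5 lower. Id2, an inhibitor of bHLH factors, fell from 152 and 241 to 10.4 and 10.9 CPM, while its relative Id3 did not pass at 72.3 and 101 CPM in MEFs and 124 and 125 CPM in CiSCs. Ccn2, a matricellular protein gene also known as a YAP target, fell from 1466 and 1364 to 381 and 355 CPM and the TGF-beta-binding Ltbp2 from 651 and 527 to 116 and 121 CPM. The count of higher targets was 1 and 2 without the first and the second CiSCs library, 2 without either MSCs library and 7 with housekeeping scaling.

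Growth factor ligands and binding proteins had 10 of 35 higher and 14 lower. The fetal growth factor Igf2 stood at 33.4 and 35.9 CPM in MEFs and 1836 and 1646 CPM in CiSCs (log2 fold change 5.65 ± 0.17, adjusted p = 1.49e-05). Fgf1 rose from 2.02 and 0.676 to 20.5 and 21 CPM, and Pdgfb, a mitogen for mesenchymal cells, fell from 31.3 and 31.9 to 1.22 and 1.78 CPM. Gas6 and Igfbp7 did not pass, Gas6 at 491 and 467 CPM in MEFs and 498 and 488 CPM in CiSCs and Igfbp7 at 767 and 1104 CPM in MEFs and 794 and 629 CPM in CiSCs. Receptors had 7 of 23 higher (4 without the second CiSCs library) and 6 lower (3 without the first). Flt1 and Kdr, receptors for vascular growth factors, fell, Flt1 from 169 and 84.2 to 10.8 and 12.5 CPM and Kdr from 9.21 and 7.85 to 1.0 and 0.842 CPM. Met, the receptor for hepatocyte growth factor, fell from 32 and 12.2 to 3.82 and 4.87 CPM and lost its call in 1 alternative fit. Kit, the stem cell factor receptor, had 3 and 262 reads in MEFs and CiSCs, a ratio of 80.5 (95% interval 27.2 to 393). The mesenchymal receptors Pdgfra (632 and 425 CPM in MEFs and 446 and 499 CPM in CiSCs) and Fgfr1 (452 and 408 CPM in MEFs and 471 and 446 CPM in CiSCs) did not pass.

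Feedback genes and targets of ERK, the kinase downstream of many of these receptors, rose in 12 of 16 cases, the largest share among the 66 lists, and fell in 2 (median 0.82). Without the first or the second CiSCs library 6 or 7 were higher. Spry4, a Sprouty inhibitor of receptor signalling, stood at 23.3 and 11.4 CPM in MEFs and 149 and 175 CPM in CiSCs (log2 fold change 3.22 ± 0.33, adjusted p = 0.000544). Spry2 rose from 101 and 43.6 to 324 and 348 CPM, and Egr1, an immediate early transcription factor, from 225 and 161 to 792 and 709 CPM. Fosl1, a subunit of AP-1, fell from 33.2 and 26 to 7.82 and 5.02 CPM. The ERK phosphatase genes Dusp4 and Dusp6 did not pass, Dusp6 at 66.9 and 68.2 CPM in MEFs and 80.7 and 85.2 CPM in CiSCs.

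Among 12 Hedgehog genes 8 rose and 0 fell (median 0.98). Those that rose include co-receptors that bind the ligand. Cdon stood at 49.1 and 25.3 CPM in MEFs and 307 and 363 CPM in CiSCs (log2 fold change 3.17 ± 0.33, adjusted p = 0.00056), Boc at 42.7 and 33.6 CPM in MEFs and 141 and 157 CPM in CiSCs and Gas1 at 133 and 112 CPM in MEFs and 275 and 262 CPM in CiSCs. The nuclear effector Gli2 rose from 27.7 and 18.9 to 71.7 and 71.2 CPM, while the pathway's feedback receptor Ptch1 (7.69 and 4.05 CPM in MEFs and 8.83 and 11.1 CPM in CiSCs) and Gli3 (74.5 and 42.9 CPM in MEFs and 57.9 and 69 CPM in CiSCs) did not pass. Notch genes had 5 of 13 higher and 5 lower. The receptor gene Notch4 rose from 0.676 and 0.105 to 20.7 and 24.5 CPM, and the ligand Jag1 fell from 92.4 and 71.3 to 9.73 and 10.7 CPM. The Fringe enzymes, which modify Notch receptors, fell, Lfng from 20.03 and 31.2 to 0.811 and 0.842 CPM and Mfng from 7.44 and 12.5 CPM to 0 reads, at least 140.4-fold lower. The target Hes1 did not pass, at 37 and 32.1 CPM in MEFs and 28.1 and 28.3 CPM in CiSCs. Immediate early and cAMP response genes fell in 10 of 22 cases and rose in 5 (median -0.66). The orphan receptors Nr4a1 and Nr4a3 fell, Nr4a1 from 245 and 249 to 31.2 and 28.7 CPM and Nr4a3 from 10.9 and 8.27 to 1.05 and 1.04 CPM, as did the stress factor Atf3, from 54.8 and 86 to 4.29 and 3.13 CPM. Areg, an EGF receptor ligand, rose from 1.16 and 0.78 to 12.2 and 7.72 CPM. Egr1, counted among the ERK targets, was thus higher in CiSCs while Nr4a1 was lower.

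**Figure D4:**
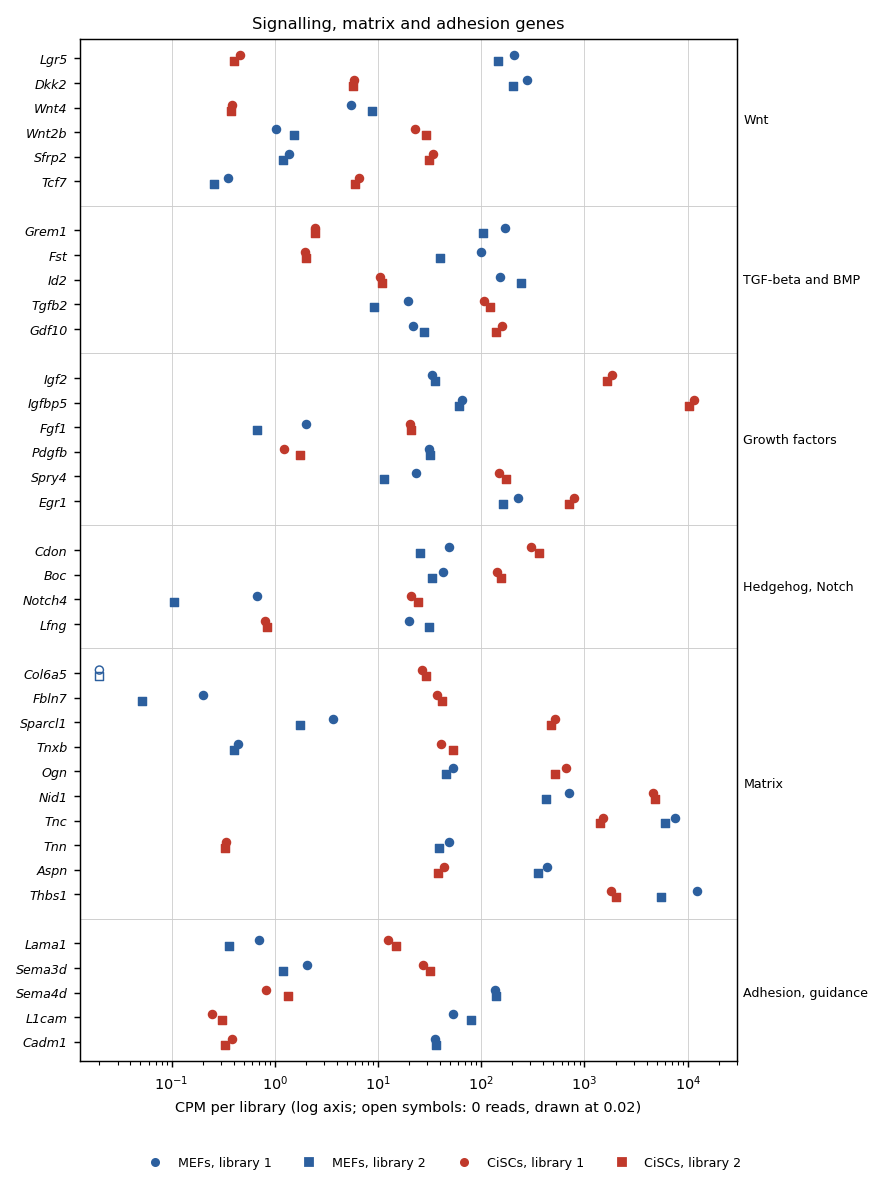
CPM of signalling, matrix and adhesion genes in each of the 4 libraries on a log axis (blue MEFs, red CiSCs, circles library 1 and squares library 2, open symbols 0 reads). Members of 1 pathway lie on both sides, such as Lgr5 and Dkk2 to the left in CiSCs and Sfrp2 and Wnt2b to the right. Only genes past the threshold were plotted, so the groups are apart in each of them by choice.

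The fibrillar collagens that dominate fibroblast matrix stayed abundant. Col1a1 and Col1a2, the chains of type I collagen, did not pass, Col1a2 at 7504 and 6821 CPM in MEFs and 6698 and 7428 CPM in CiSCs. Of 11 fibrillar genes 4 rose and 3 fell. Col3a1, type III collagen, stood at 969.5 and 1049 CPM in MEFs and 3593 and 4059 CPM in CiSCs (log2 fold change 1.92 ± 0.16, adjusted p = 0.000208), while Col5a2, a minor fibrillar chain, fell, at 2491 and 2051 CPM in MEFs and 960.0 and 1081 CPM in CiSCs. Among basement membrane and network collagens 5 of 11 rose (2 without either CiSCs library, 3 without either MSCs library) and 3 fell. Col18a1 rose from 64.4 and 59.8 to 365 and 339 CPM and Col15a1 from 4.2 and 5.46 to 37.1 and 55.9 CPM, both collagens of basement membrane zones. Col4a1, the main network collagen, rose from 1433 and 1058 to 2129.6 and 2126 CPM and lost its call in 4 alternative fits. Col8a2 fell from 11.7 and 11.4 to 2.86 and 3.84 CPM. Of the beaded, fibril-associated and transmembrane kinds 5 of 17 rose (3 without the second CiSCs library) and 3 fell (6 without the second MEFs library, 1 without either CiSCs library or with housekeeping scaling). Col6a5 went from 0 reads in MEFs to 26.6 and 29.4 CPM, at least 364-fold higher in CiSCs, and Col6a6 rose from 0.253 and 0.156 to 5.4 and 5.78 CPM. The common type VI chain Col6a2 did not pass, at 701 and 925 CPM in MEFs and 1012 and 1069 CPM in CiSCs. Col14a1, which binds fibrils, rose from 9.0 and 4.68 to 47.7 and 61.8 CPM. Col12a1 was 7021 and 2649 CPM in the MEFs libraries, over 2-fold apart, and 1597 and 2261 CPM in CiSCs (adjusted p = 0.0532, edgeR).

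Matrix glycoproteins were divided, with 16 of 37 higher and 14 lower, both above the shares over all genes. Sparcl1, a relative of Sparc, stood at 3.69 and 1.77 CPM in MEFs and 521 and 478 CPM in CiSCs (log2 fold change 7.51 ± 0.34, adjusted p = 2.33e-05). Fbln7, a fibulin, rose from 0.202 and 0.052 to 37.6 and 41.5 CPM, and Tnxb, the tenascin of elastic skin matrix, from 0.44 and 0.406 to 40.7 and 53 CPM. Other tenascins fell, Tnc from 7470.4 and 6058 to 1508 and 1408 CPM and Tnn from 49.2 and 39.3 to 0.334 and 0.327 CPM. Tenascin genes thus moved in both directions, with Tnxb higher and Tnc and Tnn lower, and Tnc stayed above Tnxb in both CiSCs libraries. Thbs1, thrombospondin 1, fell from 12444 and 5565 to 1801 and 2016 CPM (log2 fold change -2.24 ± 0.37, adjusted p = 0.00388), and its MEFs libraries lay over 2-fold apart. Fn1, fibronectin, did not pass at 9891 and 5959.6 CPM in MEFs and 4479.9 and 5158 CPM in CiSCs. Nid1, which links laminin to collagen IV, rose from 716 and 423 to 4592 and 4867 CPM, and Hspg2, the basement membrane proteoglycan perlecan, from 1176 and 1034 to 2872 and 3348 CPM.

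Small leucine-rich and other proteoglycans had 9 of 25 higher and 8 lower. Ogn (osteoglycin) rose from 52.8 and 45.1 to 661 and 523 CPM, Dcn (decorin) from 286 and 305 to 2621 and 2130.1 CPM and Prg4 (lubricin) from 1.33 and 1.43 to 15.7 and 8.77 CPM. Aspn (asporin) fell from 435 and 356 to 43.3 and 38.3 CPM, Fmod (fibromodulin) from 7.99 and 10.2 to 0.429 and 0.702 CPM and Bgn (biglycan) from 5881 and 6768 to 3160.2 and 2816 CPM. In this family the related genes Dcn and Bgn thus moved in opposite directions. Cross-linking enzymes and proteases had 10 of 37 higher (5 without the second CiSCs library, 16 with housekeeping scaling) and 14 lower. The collagenase Mmp13 fell from 13.4 and 22.8 to 0.859 and 0.515 CPM, Mmp10 from 21.4 and 18.3 to 1.54 and 1.6 CPM and Mmp12, the elastase of macrophages, from 31.3 and 49.1 to 1.29 and 1.26 CPM. Adamts15, an enzyme that cuts proteoglycans, rose from 0.778 and 0.558 to 47.2 and 50.4 CPM. The protease inhibitor Timp3 did not pass, at 1011 and 875 CPM in MEFs and 1142 and 1249 CPM in CiSCs.

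Adhesion genes also changed in both directions. Among integrins and laminins 10 of 26 rose (5 without the second CiSCs library) and 8 fell. Lama1, a laminin chain of early basement membrane, stood at 0.708 and 0.364 CPM in MEFs and 12.6 and 15 CPM in CiSCs and the laminin receptor subunit Itga3 at 4.75 and 4.16 CPM in MEFs and 31.4 and 26.8 CPM in CiSCs. Itga4, a partner of integrins that leukocytes also carry, fell from 254 and 82.3 to 19.4 and 21.4 CPM. Itgb1 and Itga5, which together bind fibronectin, did not pass. Of cadherins, nectins and immunoglobulin-type adhesion genes 15 of 34 fell and 7 rose (12 without the first MEFs library, 3 without either CiSCs library, 11 with housekeeping scaling). L1cam, an adhesion molecule of neurons, fell and stood at 52.9 and 79.7 CPM in MEFs and 0.244 and 0.311 CPM in CiSCs (log2 fold change -7.84 ± 0.34, adjusted p = 1.93e-05), and Cadm1 at 35.8 and 36.3 CPM in MEFs and 0.382 and 0.327 CPM in CiSCs. Cdh4 fell from 14.1 and 9.3 to 0.286 and 0.655 CPM, and the epithelial cadherin Cdh1 from 6.22 and 4.21 CPM to 2 reads, a ratio of 111 (95% interval 30.3 to 920.3). Cdh11, the cadherin of mesenchyme, did not pass, at 828 and 619.8 CPM in MEFs and 639.9 and 625 CPM in CiSCs. Guidance genes, named for steering axons and migrating cells, had 20 of 46 higher and 14 lower. Sema3d rose from 2.07 and 1.2 to 27 and 32.2 CPM. Sema4d fell from 135 and 139.8 to 0.832 and 1.34 CPM, and its fellow Plxnc1, a semaphorin receptor, from 59.5 and 62.7 to 3.34 and 3.46 CPM. Sema4d is also known from leukocytes, whose markers fell in the same libraries. The part of those cells in its fall was not tested.

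Contractile genes fell more often than they rose, 9 of 20 lower and 3 higher (7 higher without the first MEFs library). Cnn1 (calponin) stood at 108 and 86.3 CPM in MEFs and 14.5 and 13.6 CPM in CiSCs (log2 fold change -2.79 ± 0.16, adjusted p = 5.15e-05). Actg2, the actin of visceral muscle, fell from 93.1 and 70.6 to 21.7 and 20.5 CPM, the myosin gene Myh11 from 16.3 and 10.4 to 3.05 and 2.95 CPM and the integrin Itga7 from 24.3 and 23.4 to 3.94 and 3.44 CPM. Cald1 and Flna did not pass. Of 15 targets of the mechanosensitive factors YAP and SRF 6 fell (10 without the second MEFs library, 3 without either CiSCs library) and 1 rose (6 without the first MEFs library). Ankrd1 fell from 197 and 189.9 to 102 and 84 CPM, while Crim1 rose from 113 and 56.9 to 259 and 285 CPM. The actin gene Actg1, whose many near-identical copies make its counts uncertain, spread from 3094 and 455 CPM within MEFs and did not pass. Among 11 tested epithelial genes 4 rose (2 without the second CiSCs library) and 2 fell (4 without the first MEFs library, 1 without either CiSCs library or with housekeeping scaling). Dsp, a desmosome protein, rose from 0.708 and 0.104 to 7.11 and 6.41 CPM alongside Krt18, and Pkp2 fell from 25.7 and 21.7 to 14.3 and 13.5 CPM, a call lost in 3 alternative fits. Epcam (2.27 and 1.5 CPM in MEFs and 1.56 and 3.1 CPM in CiSCs) and Krt19 (3.54 and 3.12 CPM in MEFs and 5.01 and 3.79 CPM in CiSCs) did not pass.

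Genes of macrophages and their relatives had the lowest medians of the 66 lists. Of 46 tested macrophage receptor and signalling genes 45 fell and 0 rose, with a median log2 fold change of -8.14, or -7.96 with genes at 0 reads set to their bound. Among 13 tested myeloid transcription factors 12 fell and 0 rose (median -2.47), with 1 and 2 higher without the first and the second MEFs library, and 1 higher with housekeeping scaling and by DESeq2. Spi1, which encodes PU.1, the factor that myeloid cells depend on, stood at 109.6 and 260.3 CPM in MEFs and 0.0477 and 0.421 CPM in CiSCs (log2 fold change -9.58 ± 0.73, adjusted p = 0.000148). Ikzf1, of the Ikaros family, fell from 36.4 and 39.9 to 0.239 and 0.187 CPM and Irf8 from 50.4 and 71.2 to 0.906 and 1.73 CPM. Cebpa, which fat and liver cells also use, did not pass, at 23.8 and 41.6 CPM in MEFs and 54.6 and 52.4 CPM in CiSCs. Csf1r, the growth factor receptor of macrophages, stood at 1160.4 and 1744 CPM in MEFs and 1.06 and 2.18 CPM in CiSCs (log2 fold change -9.80 ± 0.43, adjusted p = 2.07e-05), and the pan-leukocyte gene Ptprc (CD45) at 168 and 121 CPM in MEFs and 0.0954 and 0.281 CPM in CiSCs. The lectin receptors Clec4d and Clec4e fell from 126 and 282 and 111 and 228 CPM to under 1 CPM in each CiSCs library. The single gene of the 46 that did not pass was the endotoxin receptor Tlr4, at 42.9 and 42.1 CPM in MEFs and 37.4 and 40.2 CPM in CiSCs. Spi1, Csf1r and the lectins were higher in the second MEFs library, Ptprc in the first. T cell, B cell, natural killer and mast cell genes were low in both groups, as 7 of 25 were tested and the 25 summed to 4.14 and 6.31 CPM in MEFs and 10.4 and 11.6 CPM in CiSCs. Of these sums, Kit alone made up 0 and 0.156 CPM in MEFs and 5.63 and 6.74 CPM in CiSCs.

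Promoters with the letters of a PU.1 site are shown for 3 genes of the leukocyte lists. They fell most steeply among the genes with such a match that were kept for printing. Genes of a chromosome held back from printing, and matches at or after the start site, were passed over. A gene with a match and a steeper fall can thus be missing. Ctss encodes a cathepsin of antigen-presenting cells (433 and 766 CPM in MEFs and 0.811 and 1.59 CPM in CiSCs), C1qc a chain of complement C1q (463 and 892 CPM in MEFs and 1.29 and 1.54 CPM in CiSCs) and Vav1 an exchange factor of blood cells (80.2 and 134 CPM in MEFs and 0.36 and 0.393 CPM in CiSCs). Capitals mark GAGGAAGT or its reverse complement, in the 250 bases before the RefSeq start site and the 10 after it (GRCm38.p6, each read along the strand of the gene). The coordinates are chr3:95526536-95526795 (plus strand) for Ctss, chr4:136892905-136893164 (minus strand) for C1qc and chr17:57278850-57279109 (plus strand) for Vav1.
Ctss: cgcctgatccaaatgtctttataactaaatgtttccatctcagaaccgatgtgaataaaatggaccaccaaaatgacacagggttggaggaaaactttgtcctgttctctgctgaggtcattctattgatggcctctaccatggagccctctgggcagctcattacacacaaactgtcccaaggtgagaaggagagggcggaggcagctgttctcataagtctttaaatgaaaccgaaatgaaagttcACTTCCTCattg
C1qc: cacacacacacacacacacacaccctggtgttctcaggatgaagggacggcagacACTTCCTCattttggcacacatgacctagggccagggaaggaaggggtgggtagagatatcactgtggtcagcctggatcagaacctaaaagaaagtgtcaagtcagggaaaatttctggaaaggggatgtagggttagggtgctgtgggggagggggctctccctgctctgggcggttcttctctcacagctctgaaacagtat
Vav1: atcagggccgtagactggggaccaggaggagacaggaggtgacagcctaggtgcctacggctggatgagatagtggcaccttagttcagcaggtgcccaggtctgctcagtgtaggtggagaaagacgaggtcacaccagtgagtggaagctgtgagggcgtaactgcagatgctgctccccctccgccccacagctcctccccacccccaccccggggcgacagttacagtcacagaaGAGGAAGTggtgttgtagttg
The motif, searched on both strands, was present in 1052 of 32851 promoters of the same length (3.2%). By gene, it was present for 5 of 34 macrophage receptor and signalling genes (14.7%), 997 of 27025 genes in the table (3.69%) and 151 of the 2423 genes lower in CiSCs that had a promoter there (6.23%). It was found for 0 of 12 myeloid transcription factors. The Ctss promoter also held a match to an interferon response element, which did not overlap the PU.1 letters, and the other 2 held none of the other motifs.

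Effector genes of phagocytes fell in 17 of 18 cases (median -8.13, or -7.64 at the bound) and 1 rose, Arg1 (arginase), from 0.354 and 0.312 to 4.34 and 5.15 CPM. Lyz2, the lysozyme of macrophages, fell, at 7161 and 12498 CPM in MEFs and 20.3 and 30.3 CPM in CiSCs. Its near-identical neighbour Lyz1 has reads that can be shared with it, so that the split between them is uncertain. Ncf4, of the oxidase that phagocytes use to kill microbes, fell from 62.1 and 113 CPM to 1 read, a ratio of 3689 (95% interval 662 to 145700.0). Acod1, which makes itaconate in activated macrophages, also had 1 read in CiSCs against 73.6 and 175 CPM in MEFs. The nitric oxide synthase Nos2 had 7.08 and 14.3 CPM in MEFs and 0 reads in CiSCs, at least 150.5-fold lower. Complement genes fell in 10 of 17 cases and rose in 3 (median -2.25). That median was -1.52 without the first MEFs library, -1.46 and -3.2 without the first and the second CiSCs library and -4.91 with MEFs and CiSCs alone. C1qa stood at 783 and 1361 CPM in MEFs and 1.57 and 2.71 CPM in CiSCs and the central component C3 at 206 and 353 CPM in MEFs and 0.572 and 0.982 CPM in CiSCs (log2 fold change -8.48 ± 0.41, adjusted p = 2.7e-05). The membrane regulators Cd59a and Cr1l, which many cells carry, did not pass, Cd59a at 25.4 and 35.4 CPM in MEFs and 29.2 and 23.6 CPM in CiSCs.

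Antigen presentation by class I fell in 11 of 13 cases (median -2.04). H2-D1 stood at 269 and 484 CPM in MEFs and 11.1 and 17.1 CPM in CiSCs and H2-K1 at 279 and 335 CPM in MEFs and 49.1 and 53.7 CPM in CiSCs, and as these and H2-Q4 are near-identical copies of a gene family their single values are uncertain. Nlrc5, the activator of class I genes, fell from 16.9 and 14.8 to 0.763 and 0.374 CPM. For class II and costimulation, 6 of 10 fell (3 when genes under 5 CPM were left out) and 1 rose. Cd74, the class II chaperone, fell from 4.86 and 6.81 CPM to 3 reads, a ratio of 82.1 (95% interval 27.8 to 401). The costimulatory genes Cd86 and Cd80, whose proteins bind the same costimulatory receptors on T cells, moved apart. Cd86 fell from 29.8 and 44.1 CPM to 2 reads, a ratio of 779.8 (95% interval 216 to 6445), whereas Cd80 rose from 10.3 and 12.2 to 81.5 and 71.1 CPM (log2 fold change 2.76 ± 0.16, adjusted p = 5.47e-05). Class II itself was scarce, with H2-Ab1 under 1 CPM in each library.

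Chemokines fell in 19 of 22 cases (median -5.51) and 1 rose (2 without the first MEFs library). Ccl3, made by macrophages, stood at 71.8 and 99.3 CPM in MEFs and 0.191 and 0.0936 CPM in CiSCs (log2 fold change -9.17 ± 0.39, adjusted p = 1.83e-05) and the neutrophil attractant Cxcl2 at 44 and 57.4 CPM in MEFs and 0.0954 and 0.234 CPM in CiSCs. Ccl4 had 2 reads in CiSCs, a ratio of 1121 (95% interval 309.8 to 9259), and Cxcl5 had 14.2 and 7.98 CPM in MEFs and 0 reads in CiSCs, at least 157-fold lower. The member that rose, named after its values were seen, was Cxcl12, the stromal chemokine that retains blood stem cells, at 113 and 61.8 CPM in MEFs and 804 and 799 CPM in CiSCs. Cytokine and inflammasome genes fell in 19 of 25 cases (median -3.33). Tnf, with 95.5 and 82.3 CPM in MEFs and 0 reads in CiSCs, was at least 1256-fold lower. The inflammasome sensor Nlrp3 was at least 671-fold lower, and the cytokine Osm, at 4.25 and 6.97 CPM in MEFs, at least 78.9-fold lower. Saa3, an acute phase protein, fell from 16.2 and 81.8 CPM, over 2-fold apart between the MEFs libraries, to 0.0954 and 0.0936 CPM. The 1 member that rose (2 without the first MEFs library), also named after its values were seen, was the alarmin Il33, at 1.62 and 1.46 CPM in MEFs and 107 and 96 CPM in CiSCs. Lif and Nfkbiz did not pass.

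Interferon response genes fell in 15 of 26 cases (7 without the first CiSCs library) and 1 rose, Oasl2 (median -1.05). Oas1a and Oas2, sensors of double-stranded RNA, fell, Oas1a from 27.8 and 41.4 to 3.13 and 3.15 CPM and Oas2 from 16.9 and 26.8 to 2.6 and 3.89 CPM. Oas3 fell from 6.5 and 13 to 0.297 and 0.429 CPM and the nucleic acid sensor Zbp1 from 3.89 and 10.6 to 0.334 and 0.608 CPM. The second MEFs library was the higher in all 4 of these. Bst2 (116 and 251 CPM in MEFs and 90.1 and 91.4 CPM in CiSCs, adjusted p = 0.0511, edgeR) and Ddx58 (81.2 and 89.6 CPM in MEFs and 74.7 and 77.6 CPM in CiSCs) did not pass. The interferon element, searched on both strands, was in the promoters of 13 of the 20 members of this list with a RefSeq promoter, against 3.99% of all genes in the table. Of those 13, 8 fell, against 15 of the 26 in the whole list and 145 of the 446 tested genes with the element. Whether the element marks the genes that fell was not tested.

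**Figure D5:**
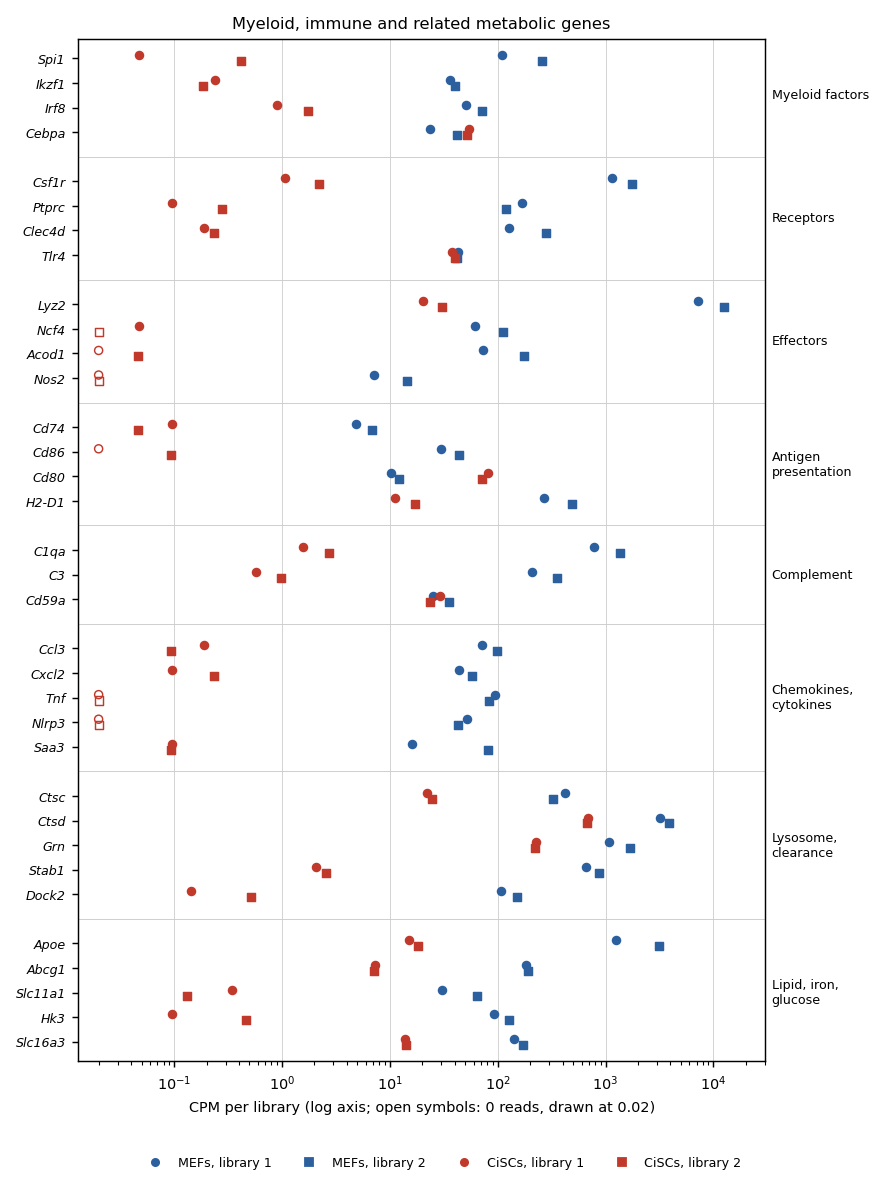
CPM of myeloid, immune and related metabolic genes in each of the 4 libraries on a log axis (blue MEFs, red CiSCs, circles library 1 and squares library 2, open symbols 0 reads). Spi1, Csf1r and Lyz2 lie far to the left in CiSCs, Tlr4, Cebpa and Cd59a, which did not pass, lie near their MEFs values, and Cd80 lies to the right.

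Lysosomal genes fell in 25 of 33 cases and rose in 2 (4 without the second MEFs library, 1 without the first CiSCs library), with a median of -1.09. The protease Ctsd stood at 3219.6 and 3859.8 CPM in MEFs and 689 and 668 CPM in CiSCs (log2 fold change -2.38 ± 0.16, adjusted p = 8.98e-05), Ctsc at 421 and 326 CPM in MEFs and 22.4 and 24.7 CPM in CiSCs and the growth factor precursor Grn at 1073 and 1689.9 CPM in MEFs and 228 and 224 CPM in CiSCs. The glucuronidase Gusb fell from 275 and 191 to 46.9 and 48.7 CPM. Ctsl, a protease that Sertoli cells secrete, and the membrane protein Lamp2 did not pass, Ctsl at 694 and 859 CPM in MEFs and 733 and 645 CPM in CiSCs. Receptors and bridges for dying cells, a task of Sertoli cells and macrophages alike, fell in 8 of 17 cases and rose in 5 (2 without either CiSCs library). Stab1, a scavenger receptor, stood at 654 and 878 CPM in MEFs and 2.09 and 2.57 CPM in CiSCs (log2 fold change -8.35 ± 0.26, adjusted p = 1.49e-05). The engulfment factor Dock2 fell from 107 and 152 to 0.143 and 0.515 CPM and its partner Elmo1 from 66.4 and 68 to 3.98 and 3.97 CPM, as did the receptor Havcr2, from 41.6 and 48.9 to 1.98 and 1.4 CPM. Gas6, the bridge to the Tyro3, Axl and Mertk receptors, did not pass. These genes are expressed by macrophages, whose receptor list fell in 45 of 46 cases in the same libraries, and the part of those cells in the change was not tested.

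Glycolysis and lactate genes fell in 16 of 24 cases and rose in 3 (1 without either CiSCs library, 5 with housekeeping scaling), with a median of -1.21. Slc16a3, an exporter of lactate, stood at 143 and 171 CPM in MEFs and 13.8 and 14 CPM in CiSCs (log2 fold change -3.50 ± 0.16, adjusted p = 2.4e-05). Hk3, the hexokinase of leukocytes, fell from 92.8 and 129 to 0.0954 and 0.468 CPM, the glucose transporter Slc2a6 from 59.6 and 111 to 0.637 and 0.803 CPM and Aldoc from 6.42 and 15.7 to 0.286 and 0.187 CPM. Gapdh, which has many near-identical copies, was over 2-fold apart within MEFs and did not pass, and Gpi1 did not either, at 379 and 444 CPM in MEFs and 617 and 513 CPM in CiSCs. Of 36 respiratory chain and TCA cycle genes 7 fell and 0 rose (median -0.41), and the count that fell was 31 without the first MEFs library, 1 without either CiSCs library, 2 without either MSCs library, 3 with MEFs and CiSCs alone and 1 with housekeeping scaling. The count that rose was 1 without the second MEFs library and with housekeeping scaling. Cox5a stood at 83.7 and 107 CPM in MEFs and 51.7 and 57.7 CPM in CiSCs and lost its call in 3 alternative fits. Citrate synthase (Cs) and the ATP synthase gene Atp5b did not pass, Cs at 283 and 298 CPM in MEFs and 279 and 267 CPM in CiSCs.

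Lipid genes showed single large changes within lists whose medians lay near 0. Of 26 cholesterol genes 6 fell and 1 rose, Hmgcs1 (0 rose without either CiSCs library, 9 without the first MEFs library and 6 with housekeeping scaling). Apoe, a lipid carrier, stood at 1263 and 3148 CPM in MEFs and 15 and 18.4 CPM in CiSCs (log2 fold change -7.04 ± 0.52, adjusted p = 0.000133), and the cholesterol exporter Abcg1 at 185 and 190.5 CPM in MEFs and 7.35 and 7.11 CPM in CiSCs (log2 fold change -4.70 ± 0.14, adjusted p = 1.49e-05). Both genes are prominent in macrophages, and the part of those cells in their fall was not tested. The sterol regulator Srebf2 did not pass, at 168 and 124 CPM in MEFs and 177 and 193 CPM in CiSCs. Fatty acid genes had 6 of 24 higher (12 without the second MEFs library, 2 and 3 without the first and the second CiSCs library, 13 with housekeeping scaling) and 6 lower (3 without the second CiSCs library). Cpt1a, the gate of fatty acid oxidation in mitochondria, rose from 54.4 and 50.8 to 229 and 243 CPM and Pparg, the regulator of fat cell differentiation, from 1.57 and 2.24 to 11.2 and 9.64 CPM. Lpl fell from 55.7 and 45.5 to 12.3 and 13 CPM and Cd36, a fatty acid receptor, from 5.87 and 5.09 to 0.477 and 0.281 CPM.

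In redox and metal handling, Sod3, an extracellular superoxide dismutase, fell from 103 and 175 to 26.2 and 19.1 CPM, and Slc7a11, the cystine importer, from 33.2 and 24.3 to 5.56 and 10.2 CPM. Gsto1 fell from 493 and 527 to 162 and 129 CPM while another glutathione transferase, Gsta4, rose from 4.0 and 3.43 to 13.2 and 13.7 CPM. In that list of 28 genes 6 rose and 8 fell (13 fell without the first MEFs library). Metal handling genes fell in 9 of 15 cases and rose in 3 (6 without the first MEFs library), with a median of -1.0. The ferritin chain Fth1 stood at 2572 and 4478 CPM in MEFs and 413 and 408 CPM in CiSCs and Ftl1 at 3238 and 6603 CPM in MEFs and 1373 and 1251 CPM in CiSCs, and both have processed copies that can share their reads. Slc11a1, the metal pump of phagosomes, fell from 30.6 and 64.1 to 0.342 and 0.132 CPM. Slc40a1, the cellular iron exporter, rose from 2.38 and 1.25 to 17.9 and 23.2 CPM. Iron storage genes were thus lower and the exporter gene higher in the same libraries. Serine and amino acid genes of the ATF4 response showed no common direction (4 of 19 higher and 4 lower, with 1 higher without either CiSCs library and 7 without the first MEFs library, and 2 and 1 lower without the first and the second CiSCs library and 2 with housekeeping scaling), with Chac1 falling from 23.4 and 23 to 6.01 and 7.39 CPM and Pycr1 rising from 29.1 and 33.5 to 61.2 and 60.3 CPM.

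Of 31 replication genes 22 fell, 9 of them by at least 2-fold, and 0 rose (1 without the first MEFs library), with a median of -0.77. The count that fell was 10 and 12 without the first and the second CiSCs library and 14 with housekeeping scaling. Cdt1, which licenses replication origins, stood at 38.1 and 49.4 CPM in MEFs and 12.4 and 15.1 CPM in CiSCs, Fen1 at 38.3 and 42.4 CPM in MEFs and 12.9 and 12.8 CPM in CiSCs and the replication clamp Pcna at 103 and 147 CPM in MEFs and 46 and 46.6 CPM in CiSCs. Mcm4 and Rrm1 did not pass. Of 30 mitosis genes 14 fell and 0 rose (median -0.50), but 2 fell without either CiSCs library, 8 without either MSCs library, 9 with MEFs and CiSCs alone and 3 with housekeeping scaling, where 1 rose. Birc5 (survivin) stood at 35.5 and 40.9 CPM in MEFs and 19.1 and 19.6 CPM in CiSCs (log2 fold change -0.98 ± 0.14, adjusted p = 0.00199), and Mki67, the proliferation marker, at 198 and 269.6 CPM in MEFs and 142 and 110.4 CPM in CiSCs. Mki67 lost its call in 1 alternative fit. Ccna2 did not pass, at 64.3 and 62 CPM in MEFs and 54.1 and 53.7 CPM in CiSCs. CDK inhibitors and p53 response genes divided, 9 of 28 higher (15 without the first MEFs library, 3 and 2 without the first and the second CiSCs library, 5 without either MSCs library) and 8 lower (4 and 3 without the first and the second CiSCs library, 4 without either MSCs library, 3 with housekeeping scaling). Trp53inp1 rose from 106 and 62.4 to 228 and 243 CPM, and the stress genes Gadd45b and Gadd45g fell, Gadd45b from 38.8 and 65.5 to 7.01 and 8.56 CPM.

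Folding and heat shock genes fell in 8 of 27 cases (15 without the first MEFs library, 4 and 3 without the first and the second CiSCs library, 4 with housekeeping scaling) and 1 rose (2 without the first MEFs library, 6 with housekeeping scaling). Cryab, a small heat shock protein, stood at 103 and 120.1 CPM in MEFs and 12 and 9.96 CPM in CiSCs and the ER factor Sdf2l1 at 33 and 66.6 CPM in MEFs and 5.87 and 6.97 CPM in CiSCs, while Hspb8 rose from 46.5 and 52.8 to 113 and 102 CPM. The major chaperones Hspa8 and Hsp90ab1 did not pass, Hspa8 at 1919 and 2036 CPM in MEFs and 1775 and 1722 CPM in CiSCs. Among DNA methylation and histone enzymes 8 of 24 rose and 4 fell (9 without the second MEFs library, 2 without either CiSCs library or with housekeeping scaling). Tet1, which oxidises methylcytosine, rose from 1.63 and 0.576 to 6.69 and 9.01 CPM, Tet3 from 30.5 and 14.5 to 57.9 and 70.8 CPM (lost in 1 alternative fit) and the de novo methyltransferase Dnmt3a from 43.4 and 36.3 to 97.4 and 118 CPM. The maintenance enzyme Dnmt1 did not pass, at 118 and 115 CPM in MEFs and 90.7 and 96.3 CPM in CiSCs. Writers and erasers of DNA methylation were thus both among the genes that rose. Pluripotency genes gave 4 higher (2 without the second CiSCs library) and 3 lower of 11 tested, of 26 in the files, and Pou5f1, the core factor of pluripotent cells, had 0 reads in all 4 libraries. Mycn stood at 1.21 and 2.08 CPM in MEFs and 29.9 and 27.8 CPM in CiSCs (log2 fold change 4.13 ± 0.27, adjusted p = 7.79e-05), and Klf2 and Klf4 moved apart, Klf2 from 15.6 and 18.6 to 74.9 and 57.8 CPM and Klf4 from 98.3 and 69.3 to 19.6 and 21.2 CPM. Hmga2 and Igf2bp3, genes of fetal tissue, did not pass, Igf2bp3 at 51.9 and 40.6 CPM in MEFs and 44.7 and 50.4 CPM in CiSCs.

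Markers of other lineages changed in both directions. Of 18 tested neuronal and glial genes 5 rose and 7 fell (3 and 4 without either CiSCs library). The growth cone protein Gap43 fell from 23.7 and 25 to 2.62 and 1.45 CPM, the neurofilament gene Nefm rose from 0.152 and 0.104 to 7.01 and 5.66 CPM, and Slitrk1 went from 0 reads in MEFs to 17.2 and 19.9 CPM, at least 241-fold higher in CiSCs. Muscle genes fell in 5 of 9 cases (3 without either CiSCs library), with the skeletal actin Acta1 at 23.6 and 23.3 CPM in MEFs and 0.144 and 0.283 CPM in CiSCs (log2 fold change -6.74 ± 0.31, adjusted p = 2.35e-05). In the cartilage and bone list, Phex, a regulator of phosphate in bone, rose from 0.873 and 0.352 to 47.4 and 53.1 CPM, Spp1 (osteopontin) fell from 7253 and 8983 to 3119 and 2391 CPM and Runx2 did not pass at 30.8 and 25.7 CPM in MEFs and 33.7 and 31.7 CPM in CiSCs. Endothelial and pericyte genes gave 5 higher and 6 lower of 18, with Emcn rising from 0.202 and 0.208 to 9.45 and 11.5 CPM and Vwf falling from 10.5 and 21.7 to 0.286 and 0.374 CPM. Of 11 tested genes of Leydig cells and steroid synthesis 1 rose, Srd5a1, and 0 rose without any 1 CiSCs or MSCs library or by DESeq2, while 1 fell without the second MEFs library or by DESeq2. In the germ cell list Gfra1, the GDNF receptor that other cells also express, fell from 127 and 115 to 6.2 and 7.39 CPM. Of 6 tested red cell genes 1 rose, the erythropoietin receptor Epor, and 1 fell, the latter being Tal1, a factor of blood stem cells, from 7.08 and 6.24 CPM to 0 reads, at least 94.1-fold lower. Among 15 fibroblast markers 4 rose and 4 fell (8 fell without the second MEFs library). Fap, known from activated fibroblasts, stood at 6.02 and 4.11 CPM in MEFs and 235 and 230.0 CPM in CiSCs (log2 fold change 5.52 ± 0.22, adjusted p = 1.71e-05), and the proteoglycan gene Lum rose from 39.6 and 28.8 to 239 and 261 CPM. Thy1, a surface marker of fibroblasts, fell from 867 and 687 to 145 and 132 CPM and S100a4, which leukocytes express too, from 493 and 707 to 2.62 and 4.16 CPM (log2 fold change -7.46 ± 0.32, adjusted p = 1.98e-05).

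Outside the lists, the 15 largest increases included enzymes, channels and secreted proteins of several kinds. Fmo2, a flavin monooxygenase, stood at 0.405 and 0.104 CPM in MEFs and 274 and 284 CPM in CiSCs (log2 fold change 10.05 ± 0.35, adjusted p = 1.49e-05). Add2, a subunit of the membrane skeleton of red cells, had 3 reads in MEFs and 87.8 and 89.96 CPM in CiSCs, a ratio of 1156 (95% interval 395 to 5608), and Shisa3, an inhibitor of Wnt and FGF receptors, had 2 reads and 51.2 and 49.1 CPM, a ratio of 978 (95% interval 270.4 to 8081). Csn3, a casein of milk, went from 1 read to 159 and 111 CPM, and the receptor gene Gpr83 from 1 read to 57.9 and 62.4 CPM. The potassium channel gene Kcnd3 and the estrogen sulfotransferase gene Sult1e1 went from 0 reads in MEFs to 11.1 and 11 CPM and to 10.6 and 10.8 CPM, at least 144-fold and 139-fold higher in CiSCs. Fmo6, Ccnb3 and Izumo1r were likewise at 0 reads in MEFs, at least 323-fold, 238-fold and 229-fold higher in CiSCs. In all, 60 genes that rose had 0 reads in MEFs and 122 genes that fell had 0 reads in CiSCs. Of the 15 largest decreases, 6 belong to the leukocyte lists. Those lists do not hold every gene of leukocytes, and the rest of the 15 include myeloid genes outside them, such as Fcrls. Fxyd2, a regulator of the sodium pump, is not on a list and fell from 32.2 and 96.1 CPM to 1 read, a ratio of 2698 (95% interval 484 to 106600.0). The second MEFs library was about 3 times the first for Fxyd2. For the myeloid Fc receptor-like gene Fcrls the fall was from 519 and 684 to 0.0954 and 0.561 CPM, and for the membrane gene Ms4a7 from 236 and 298 to 0.0477 and 0.14 CPM (log2 fold change -11.37 ± 0.33, adjusted p = 1.49e-05).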

How the data were processed

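Expected counts per gene, estimated counts that need not be whole, were deposited by the authors for each library. The submitters' processing notes name HISAT and the mouse build mm9, and the counting program, annotation and strand setting are not given in the sources used here. Per the labels' protocols, total RNA was sequenced on BGISEQ-500. Gene identifiers were matched to symbols for 18891 of 20007, and 22 of 1507 list members were not analysed here. Counts were rounded and fitted over all 6 libraries with edgeR 4.0.16 (TMM scaling, filterByExpr, quasi-likelihood test of CiSCs minus MEFs, Benjamini-Hochberg adjustment over 15272 genes, threshold 0.05). All groups share 1 estimate of spread with 3 residual degrees of freedom. The script was tested on simulated data. Alternatives used DESeq2 1.42.0, other scalings and filters, each library left out and a replicate block. The gene lists, and the rules below, were chosen with earlier results of these data known. Named genes were the 15 largest increases and decreases, the 10 largest gains and losses in CPM, up to 4 passing genes and 2 others per list, and 21 fixed genes. Single members that moved against their list (Arg1, Oasl2, Hmgcs1, Srd5a1, Epor, Cxcl12, Il33), and Cyp26a1, were named after their values were seen. Promoters printed were up to 3 per list with a motif match and the largest fold, passing over a held-back chromosome and matches at or after the start site. The labels do not say that equal numbers pair cultures, so the numbers were not taken as pairs. A few named genes are not reported here.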

Additional observations from a re-analysis of the deposited data

How the results depend on the processing

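Of the 269 named genes that passed, 0 changed sign in the alternative fits that held them, which were all 15 but for 50 genes in the fit without leukocyte and lysosome lists (219 held) and 4 with at least 5 CPM (265 held). Most of them were picked for large changes in the same libraries, so kept signs and calls were likely beforehand and say little of other genes. With MEFs and CiSCs alone, 4816 of all 6250 calls were kept, against 264 of the 269 named genes. The fewest that kept their call were 251 without the second and 255 without the first CiSCs library, among fits that held all 269. Leaving out 1 library at a time, the number of genes higher in CiSCs ranged from 1473 to 4646 and the number lower from 1922 to 4841. Scaling on housekeeping genes gave 4831 higher and 2222 lower, a shift in the median log2 fold change of all genes of 0.340. An adjusted p under 0.01 left 1707 higher and 2067 lower, and a 2-fold minimum 1832 higher and 2174 lower. DESeq2 gave 3024 higher and 3306 lower. CiSCs genes over 2-fold apart between the libraries numbered 41 at 5 CPM and 9 at 20 CPM, against 23 at 10 CPM. With the replicate number as a replicate block, 2644 genes were higher and 2824 lower. Across genes, deviations from the group means in same-numbered libraries correlated at -0.215 between MEFs and CiSCs, 0.138 between MEFs and MSCs and -0.129 between CiSCs and MSCs. With 2 libraries per group, these values cannot show whether the libraries were paired. With MEFs and CiSCs alone, the replicate block gave 2207 higher and 2379 lower and the crossed pairing, chosen after seeing the data, 3501 and 3454. The cause of these differences was not tested. Low reads limit the Sertoli factors Gata4, Nr5a1 and Dmrt1.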
